A study of Homo sapiens with 6 samples.

Results

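The genes examined encode the proteins that choose and build splice sites: the SR proteins, the heterogeneous nuclear ribonucleoproteins (hnRNPs) and the protein parts of the spliceosome's small nuclear ribonucleoproteins (snRNPs). Probes were taken by gene symbol, namely those beginning with SRSF, HNRNP, SF3A, SF3B, SNRNP or SNRP, together with TRA2A, TRA2B, U2AF1, U2AF2, PTBP1 and RBM39. This gave 131 probes of 74 genes, out of 47225 probes of 20043 named genes on the array. Transcripts were measured on Illumina BeadChips, whose value for a probe is the mean brightness of its beads, in HCT116, an established human colorectal carcinoma line. The 3 tested arrays held RNA of cells with a short hairpin RNA against TCF7L1 (shTCF7L1) and the other 3 held RNA of cells with a control hairpin (shCtrl). TCF7L1 is a DNA-binding protein of the TCF/LEF family that acts in Wnt signalling, and the series asks which transcripts differ between the 2 conditions. The series calls the 3 arrays of each condition biological replicates; the hairpin sequences, and whether the cells were pooled or clonal, are not given in the labels.

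Splicing removes introns from pre-mRNA. The U1 snRNP reads the start of an intron, the U2 snRNP with its SF3A and SF3B proteins reads the branch point, the U2AF pair reads the end of the intron, and the U4/U6 and U5 snRNPs then join to form the active machine. SR proteins mostly bind exons and favour their inclusion, whereas many hnRNPs bind pre-mRNA broadly and often favour skipping, so the balance of the 2 families is one of the known determinants of alternative splicing. Many of these genes also splice their own transcripts into forms that are degraded, so different probes of a gene can read different transcripts.

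The 131 probes were mostly readable: 104 (79.4%) were above background (detection p below 0.01) on all 6 arrays, against 29.1% of the 47225 probes of the table. The test used the 110 probes of 69 genes that were above background on at least 3 arrays. The genes SRSF12, SF3A1, SNRPE, HNRNPCL1 and HNRNPKP3 had no probe that passed, and 15 of the 131 probes were above background on 0 arrays. Mean bead signal was 165 to 171 on the shTCF7L1 arrays and 162 to 177 on the shCtrl arrays. Over the 110 probes, correlations between arrays of the same group were 0.974 to 0.979, and those between arrays of different groups 0.959 to 0.969. The 6 arrays shared 1 chip and neighbouring positions held the same group, so chip position and group cannot be told apart. Of 8 colorectal epithelial markers 6 were above background on all arrays and LGALS4 on none, with summed bead signals of 9601 to 11895 on shTCF7L1 arrays and 10721 to 12359 on shCtrl arrays. Of 5 fibroblast markers 1, COL1A1, was above background on all arrays, with sums over the list of 339 to 445 in shTCF7L1 and 293 to 337 in shCtrl; its part in the results was not tested. Of 3 leukocyte and 3 endothelial markers 0 were above background on all arrays.

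The single TCF7L1 probe was dim. Its bead signal was 29.3, 32.4 and 25.4 on the shTCF7L1 arrays and 45.1, 35.8 and 40.6 on the shCtrl arrays. It was above background on 0 of 3 and on 2 of 3 arrays of these groups. As shCtrl replicate 2 was also not above background, no minimum fold can be given. The log2 difference fitted by limma, -0.53 (SE 0.20), includes values at background in both groups. It had an adjusted p of 0.0872, above the threshold of 0.05.

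Few splicing factor probes changed. Of the 110 probes 3 rose and 4 fell in shTCF7L1 cells (limma, Benjamini-Hochberg adjusted p below 0.05 over 16835 probes), 7 in all or 6.36%, while 13.0% of all probes were called. By direction 2.73% of the splicing factor probes were called higher, against 6.46% of all probes, and 3.64% were called lower, against 6.58%. The 7 probes belong to 7 genes. Of the 4 lower probes 1, that of SNRNP35, entered the test only through its shCtrl arrays, where it is high. It is also the only called probe of the U1, U5, U4/U6 and minor snRNP proteins. When only probes above background on all arrays were tested, 3 splicing factor probes were higher and 3 lower. That is 5.77% called, against 14.7% of all probes so tested. By role, 0% of the SR protein probes, 6.52% of the hnRNP probes and 10.5% of the branch point and intron end probes were called. The share was 11.1% for the Sm proteins and 6.25% for the U1, U5, U4/U6 and minor snRNP proteins, each against 13.0% of all probes. The share with an unadjusted p below 0.05 was 29.1% for the splicing factor probes and 28.3% for all probes. With the authors' processed values 5 splicing factor probes were higher and 1 lower, and 65.7% of all calls were increases against 49.5% here.

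Small differences leaned to lower values in shTCF7L1 cells. The median log2 difference (shTCF7L1 minus shCtrl) of the 110 probes was -0.15, against 0.0076 over all 16835, and 72 of the 110 (65.5%) were negative, against 49.3% of all probes. In 27 probes (24.5%) all 3 shTCF7L1 values lay below all 3 shCtrl values, which held for 15.9% of all probes. The opposite held for 8 (7.27%), against 16.5% of all probes, and in either direction 32.4% of all probes had groups that did not overlap. The 27 include SNRNP35 and the 8 include SNRPN, probes above background on 0 arrays of the group where they are low. The splicing factor probes were also brighter, with a median log2 level of 8.52 against 6.73 over all kept probes. Whether the lean goes with level was not tested. The SE of a difference was 0.19 to 0.30 (median 0.22). Of the 103 probes that did not pass, 87 had a 95% interval that stayed within a 2-fold change either way, and in 16 the interval reached beyond it. In bulk RNA, fewer cells with a transcript and less of it per cell cannot be told apart.

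**Figure D1:**
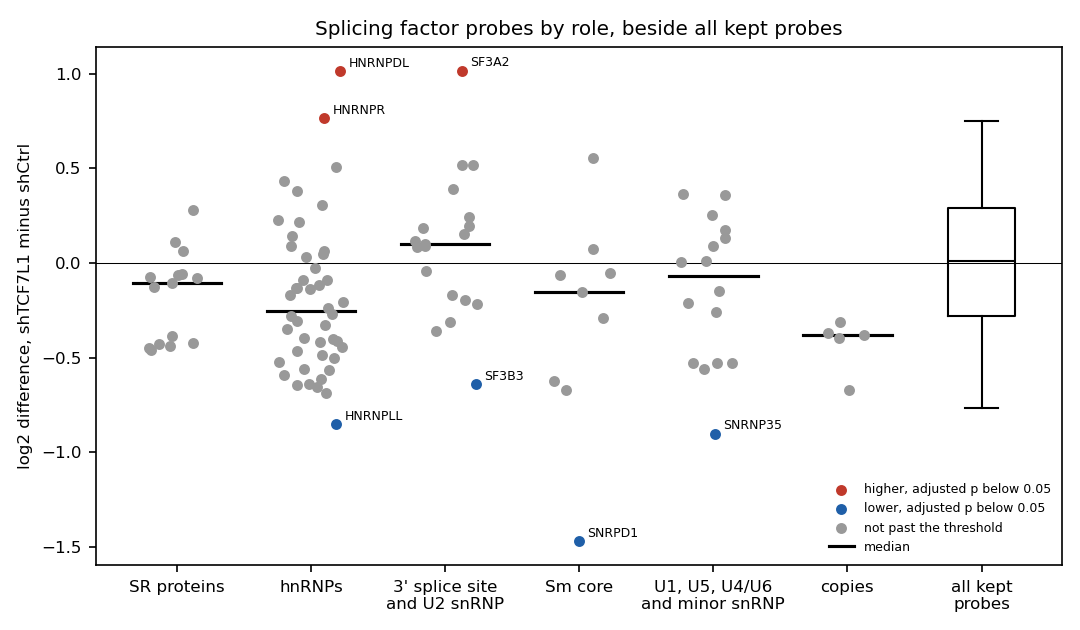
Log2 difference between shTCF7L1 and shCtrl (y axis) of the 110 splicing factor probes, grouped by role, with all 16835 kept probes as a box (quartiles; whiskers at the 5th and 95th percentiles). Points are probes, bars are medians and coloured points passed the threshold: 3 were higher, 4 were lower, and the rest lay between -0.69 and 0.56. The value of 0.56 (SNRPN) and that of SNRNP35, called lower, include values at background. Each of these 2 probes was above background on 0 arrays of the group where it is low.

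The SR proteins had no change that passed. Of 15 probes of 13 genes 0 were called by limma, and 3 had an unadjusted p below 0.05, those of SRSF1, SRSF7 and TRA2B. The median was -0.11 and 12 of 15 values were negative, and each value lay between -0.46 and 0.28. The median moved to -0.19 under median scaling, to -0.19, -0.17 and -0.27 without shTCF7L1 replicate 1, shTCF7L1 replicate 2 and shCtrl replicate 2, and 9 of 15 values were negative with the authors' values. With those values 41.4% of all kept probes were negative, against 49.3% in the main fit. SRSF1, the founding splicing factor of the family, had log2 levels of 10.12, 10.18 and 9.75 in shTCF7L1 and 10.48, 10.58 and 10.33 in shCtrl. These values did not overlap, and the difference was -0.45 (SE 0.20, 95% interval -0.88 to -0.02, limma adjusted p = 0.158). SRSF6, known for binding regulated exons, had 10.68, 11.02 and 11.43 in shTCF7L1 against 11.58, 11.66 and 11.27 in shCtrl. Its highest shTCF7L1 array lay above the lowest shCtrl array, and the difference was -0.46 (SE 0.22, adjusted p = 0.189). SRSF9 gave 11.72, 11.13 and 10.77 in shTCF7L1 and 11.24, 11.26 and 11.44 in shCtrl. The knockdown arrays of SRSF9 spread on both sides of the controls (difference -0.11, SE 0.23).

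SRSF7, an SR protein with a zinc knuckle, and TRA2B, an SR-like activator of exon inclusion, also had groups that did not overlap. SRSF7 had 7.83, 7.50 and 7.70 in shTCF7L1 and 8.25, 7.87 and 8.21 in shCtrl (difference -0.44, adjusted p = 0.170). TRA2B had 8.87, 8.82 and 9.15 against 9.32, 9.37 and 9.41 in shCtrl (difference -0.42, adjusted p = 0.168). SRSF2, SRSF8 and SRSF11 differed by -0.08 to -0.06, and SRSF4 and TRA2A by 0.11 and 0.06. SRSF3, which also binds its own transcript, gave -0.39 (SE 0.21). SRSF10 had -0.08 and -0.43 at its 2 probes, and SRSF5 had -0.13 and 0.28.

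Among the hnRNPs 2 probes rose, 1 fell and 43 of 46 did not pass, over 22 genes. The family's median was -0.25, and -0.25 to -0.18 with other background settings and scalings, with 33 of 46 values negative. HNRNPLL, a regulator of alternative splicing first known from the CD45 gene of T cells, fell. Its log2 levels were 7.01, 7.07 and 6.04 in shTCF7L1 and 7.53, 7.53 and 7.63 in shCtrl. Replicate 3 of shTCF7L1 lay far below the other knockdown arrays, and all 3 lay below the controls. The difference was -0.85 (SE 0.25, 1.81-fold lower, adjusted p = 0.0340). It was -0.52 without shTCF7L1 replicate 3 (adjusted p = 0.140). The call also ended when any of the 3 shCtrl arrays was omitted (adjusted p 0.0762 to 0.0994), under median scaling (0.0518) and with the authors' values (0.152).

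HNRNPDL and HNRNPR each had 1 probe that rose while their other probes did not pass. HNRNPDL encodes a relative of hnRNP D and is known to control the splicing of its own transcript. Probe ILMN_1730572 had log2 levels of 7.67, 7.40 and 8.07 in shTCF7L1 and 6.97, 6.30 and 6.82 in shCtrl. All 3 knockdown values lay above the controls, by 1.01 on the log2 scale (SE 0.23, 2.02-fold, adjusted p = 0.00963), and without shCtrl replicate 2 the value was 0.82 (adjusted p = 0.0529). The gene's other kept probe, ILMN_1653432, had 9.06, 9.49 and 9.34 against 8.78, 8.96 and 9.24 in shCtrl. These groups overlapped (difference 0.30, SE 0.21, adjusted p = 0.363). The platform annotation ties this second probe to a non-coding RefSeq transcript and the called one to a coding transcript.

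HNRNPR, which binds mRNA in the nucleus and in axons, had 3 kept probes. ILMN_3265895 gave 6.34, 6.50 and 5.96 in shTCF7L1 and 5.51, 5.93 and 5.06 in shCtrl, a difference of 0.77 (SE 0.24, 1.70-fold, adjusted p = 0.0441). The lowest knockdown array lay just above the highest control array, and the call ended when shTCF7L1 replicate 1 or 2, or shCtrl replicate 1 or 3, was omitted (adjusted p 0.0974 to 0.183). It also ended with the authors' values (0.0747), without background correction (0.0528) and with a background offset of 50 (0.0783). ILMN_3177285 and ILMN_2175894 of the same gene had differences of -0.35 and -0.14, with overlapping groups.

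Several hnRNP genes had lower values at every kept probe, none past the threshold. HNRNPM, a splicing regulator studied in tumour cells, had 3 kept probes at -0.59, -0.50 and -0.56. Its probe ILMN_3269405 had 10.29, 9.94 and 10.34 in shTCF7L1 and 10.63, 10.89 and 10.75 in shCtrl, groups that did not overlap (adjusted p = 0.0759). HNRNPAB gave -0.65, -0.64 and -0.57 at 3 probes (adjusted p = 0.0895 to 0.170). HNRNPA1, a repressor of splicing that opposes SRSF1, gave -0.62 and -0.65 at 2 probes (adjusted p = 0.0652 and 0.0698), and neither had overlapping groups. HNRNPC, known for binding uridine tracts, gave -0.52 and -0.33, and HNRNPH3 gave -0.40 and -0.49. With a background offset of 50, 1 probe each of HNRNPA1 and HNRNPM passed. That HNRNPM probe, ILMN_3269405, also passed under median scaling (-0.64). Without shTCF7L1 replicate 1, HNRNPM probe ILMN_1745385 (-0.83) and HNRNPAB probe ILMN_1696485 (-0.92) passed.

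The remaining hnRNP probes had values in both directions, none past the threshold. HNRNPU, also a scaffold protein of chromatin, gave 0.51 and 0.38 at 2 probes. Its brighter probe had 6.93, 7.10 and 7.10 in shTCF7L1 and 6.74, 6.44 and 6.43 in shCtrl, with no overlap (adjusted p = 0.10), and it passed with the authors' values. HNRNPA2B1, which binds RNA carrying N6-methyladenosine, had 4 probes at -0.21, -0.13, 0.21 and 0.23. HNRNPD, which binds AU-rich elements, had 11.92, 11.82 and 12.05 at probe ILMN_2321451 in shTCF7L1 and 11.36, 11.89 and 11.24 in shCtrl, a difference of 0.43 (SE 0.22, adjusted p = 0.198), and -0.09 at its other probe. HNRNPK gave -0.27, 0.03 and 0.05. HNRNPH1 gave -0.09, -0.42 and -0.46, and HNRNPH2 0.14 and -0.69. HNRNPA0, HNRNPA3, HNRNPF and HNRNPL gave -0.44 to -0.24 at 1 probe each. HNRNPUL1 gave -0.40 to -0.03 at 4 probes, HNRNPUL2 gave 0.09, and HNRNPA1L2 gave -0.31 and 0.06. PTBP1, the polypyrimidine tract-binding repressor of exons, gave 10.99, 10.35 and 11.39 in shTCF7L1 against 11.54, 11.08 and 10.61 in shCtrl. The PTBP1 groups overlapped widely (difference -0.17, SE 0.27).

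HNRNPA1 has near-identical copies in the genome, so which transcript its probes read is uncertain. The 5 kept probes annotated to copies or little-studied loci of hnRNP genes were all negative (-0.67 to -0.31) and 0 passed (limma; 1 had an unadjusted p below 0.05). That probe, of HNRNPA1P10, had 8.95, 9.77 and 9.64 in shTCF7L1 and 10.38, 10.31 and 9.68 in shCtrl (difference -0.67, adjusted p = 0.0874). The probes of HNRNPA1P33, HNRNPA3P1, HNRNPCL2 and HNRNPCL3 gave -0.37, -0.38, -0.31 and -0.39.

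**Figure D2:**
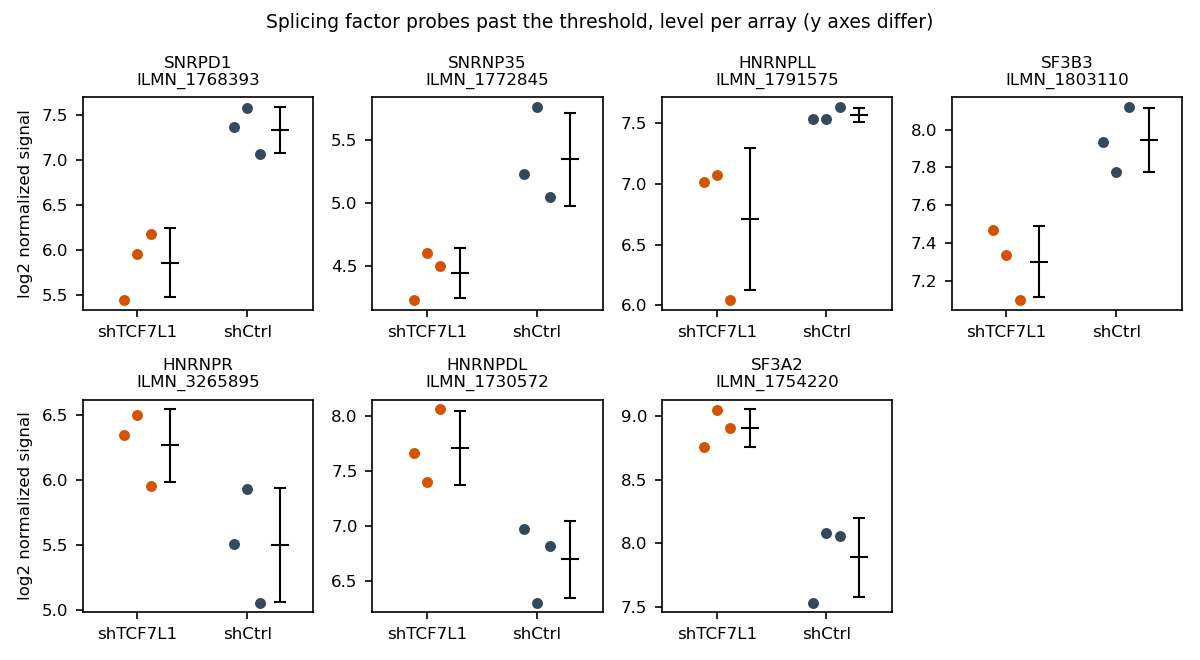
Normalized log2 signal (y axes, which differ between panels) of the 7 splicing factor probes past the threshold on each array, shTCF7L1 left and shCtrl right. Points are arrays and bars are mean ± SD (n = 3 each). In every panel the 2 groups do not overlap, and in HNRNPLL 1 knockdown array at 6.04 lies apart. As the probes were chosen by their difference on these same arrays, the lack of overlap is no further evidence. The SNRNP35 probe was above background on 0 of 3 shTCF7L1 arrays.

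Proteins that read the branch point and the end of the intron moved in both directions. Of 19 probes of 13 genes 1 rose, 1 fell and 17 were not past the threshold; their median was 0.10 (0.077 to 0.17 with other background settings and scalings). It was 0.028, 0.065, 0.15 and 0.18 without shCtrl replicate 1, shTCF7L1 replicate 3, shTCF7L1 replicate 2 and shCtrl replicate 3. SF3A2, a subunit of the SF3A complex of the U2 snRNP, rose. Its bead signal was 451, 565 and 487 in shTCF7L1 and 202, 255 and 269 in shCtrl. On the log2 scale it had 8.76, 9.05 and 8.91 in shTCF7L1 against 7.53, 8.08 and 8.05 in shCtrl. The groups lay apart by 1.02 (SE 0.21, 2.02-fold, 95% interval 0.57 to 1.47, adjusted p = 0.00549). This call held under all 18 alternatives (0.84 to 1.16).

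SF3B3, a scaffold subunit of SF3B, fell by a small amount. It had 7.47, 7.34 and 7.10 in shTCF7L1 and 7.94, 7.78 and 8.12 in shCtrl. The difference of -0.64 (SE 0.20, 1.56-fold lower, adjusted p = 0.0457) was past the threshold in 0 of the 6 fits with an array omitted (adjusted p 0.0603 to 0.143), and lost its call under median scaling (0.0815), with the authors' values (0.0881) and with a replicate block (0.0618). SF3B1, the SF3B subunit that is often mutated in blood cancers, gave 0.24, 0.52 and 0.10 at 3 probes. SF3B2 gave 0.18, SF3B4 0.39, SF3B5 -0.17 and SF3A3 -0.31, all with overlapping groups. SF3B6, which contacts the branch point, had 10.58, 10.91 and 10.90 in shTCF7L1 and 11.02, 10.99 and 11.03 in shCtrl at probe ILMN_1703720 (difference -0.22, SE 0.20), and 0.15 at its other probe.

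U2AF1 and U2AF2, which bind the 3′ splice site as a pair, gave 0.09 and 0.09 at the 2 probes of U2AF1 and -0.04 and 0.19 at those of U2AF2. RBM39, a U2AF-like coactivator, had 7.60, 7.71 and 7.77 in shTCF7L1 and 7.00, 7.14 and 7.38 in shCtrl. Its groups did not overlap (difference 0.52, SE 0.20, adjusted p = 0.0947), and it passed with the authors' values. SNRPB2 and SNRPA1, which bind the U2 snRNA as a pair, did not pass. SNRPB2 had 10.94, 10.81 and 10.94 at its brighter probe in shTCF7L1 and 10.54, 10.89 and 10.91 in shCtrl (difference 0.11), and -0.36 at the other probe. SNRPA1 gave -0.20.

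The Sm proteins form the ring around the snRNA of most snRNPs. SNRPD1, the gene of SmD1, fell more than any other splicing factor probe tested here. Its bead signal was 56.6, 77.7 and 85.3 in shTCF7L1 and 180.4, 184 and 142 in shCtrl. On the log2 scale it had 5.44, 5.96 and 6.18 in shTCF7L1 and 7.36, 7.57 and 7.07 in shCtrl. The highest knockdown array lay well below the lowest control array. The difference was -1.47 (SE 0.23, 2.77-fold lower, 95% interval -1.96 to -0.99, adjusted p = 0.000785). It passed under all 18 alternatives, with values of -1.66 to -1.08.

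The other Sm genes did not follow past the threshold: of 9 probes of 7 genes 1 fell and 8 were not past it. Their median was -0.15 (-0.24 to -0.15 with other background settings and scalings). It was -0.27, -0.23 and -0.10 without shCtrl replicate 2, shTCF7L1 replicate 3 and shCtrl replicate 1. SNRPB, the gene of SmB, came closest. Its brighter probe had 10.51, 10.36 and 11.09 in shTCF7L1 and 11.18, 11.42 and 11.23 in shCtrl, groups that did not overlap (difference -0.62, adjusted p = 0.0722). Its other probe gave -0.67 with overlapping groups, and both passed without shTCF7L1 replicate 3. The brighter SNRPB probe also passed under median scaling (-0.69). SNRPD2 had 12.62, 12.39 and 12.53 in shTCF7L1 and 12.78, 12.63 and 13.00 in shCtrl, a difference of -0.29 (SE 0.20). SNRPG gave 11.74, 11.80 and 11.85 against 12.05, 11.72 and 12.07 in shCtrl (difference -0.15). SNRPD3 gave -0.06 and SNRPF -0.06 and 0.07. SNRPN, a tissue-restricted relative of SNRPB, was above background on all 3 shTCF7L1 arrays and on 0 shCtrl arrays, at least 1.30-fold higher (adjusted p = 0.101). This probe entered the test only through its 3 shTCF7L1 arrays, where it is high. The other SNRPN probes, ILMN_1662019, ILMN_1693341 and ILMN_2372082, were above background on 0 arrays.

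Proteins particular to the U1, U5, U4/U6 and minor snRNPs had 1 probe lower and 15 of 16 not past the threshold, over 9 genes. Their median was -0.07, and 0.0054 with the authors' values, so it gives no direction. It was -0.20, -0.14 and -0.04 without shCtrl replicates 1, 2 and 3. The probe that fell was that of SNRNP35, a protein of the U11/U12 snRNP that splices the rare minor introns. Its bead signal was 24.5, 36.2 and 33.9 in shTCF7L1 and 49.7, 61.2 and 43.7 in shCtrl. It was above background on 0 of 3 knockdown arrays and on all 3 controls, so the shCtrl signal was at least 1.42-fold higher (adjusted p = 0.0144). The call ended without shTCF7L1 replicate 1 (0.0639) or shCtrl replicate 2 (0.0733), with an offset of 50 (0.0733) and with the authors' values (0.260). The probe entered the test only through its 3 shCtrl arrays, where it is high, and without a detection filter it did not pass (0.0851).

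Other minor spliceosome genes did not pass. SNRNP25 gave -0.56 and -0.15 at its probes, and SNRNP48 0.09. Of the U1 proteins, SNRNP70 gave -0.21 at its brightest probe, with 9.82, 10.19 and 10.15 in shTCF7L1 and 10.23, 10.23 and 10.34 in shCtrl, and -0.26 and 0.25 at the others. SNRPA, whose protein binds a loop of the U1 snRNA, had 7.78, 7.59 and 7.88 in shTCF7L1 against 8.14, 8.62 and 8.07 in shCtrl. The SNRPA groups did not overlap (difference -0.53, adjusted p = 0.109). SNRPC gave 0.0038 and 0.0087. Of the U5 proteins, SNRNP40 gave -0.53 at both probes, with no overlap at either (adjusted p = 0.0952 and 0.112). Probe ILMN_3247064 of SNRNP40 had 9.21, 9.02 and 8.76 in shTCF7L1 and 9.56, 9.39 and 9.62 in shCtrl. SNRNP200, the helicase that unwinds U4 from U6, gave 0.17 and 0.37, the second of which passed with the authors' values, and SNRNP27 0.36 and 0.13.

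Because one gene can be read by several probes, the difference between probes of a gene was tested directly. Among the 30 splicing factor genes with several kept probes there were 41 pairs of a further probe with the gene's probe of highest mean. Of these 0 passed in limma and 3 had an unadjusted p below 0.05, while 0.563% of 3195 such pairs over all genes passed. Those 3 were HNRNPR (ILMN_3265895 against ILMN_3177285, difference 1.11, SE 0.35, adjusted p = 0.191), HNRNPH2 (-0.83, adjusted p = 0.364) and HNRNPDL (0.71, adjusted p = 0.443). The changes of the called HNRNPR and HNRNPDL probes were thus not shown to differ from those of the genes' other probes. The other HNRNPR probes had negative differences (-0.35 and -0.14), and the other HNRNPDL probe a positive one (0.30). The sign was the same in 28 of the 41 pairs. In 11 genes all kept probes were negative, in 7 all were positive and in 12 the signs were mixed.

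**Figure D3:**
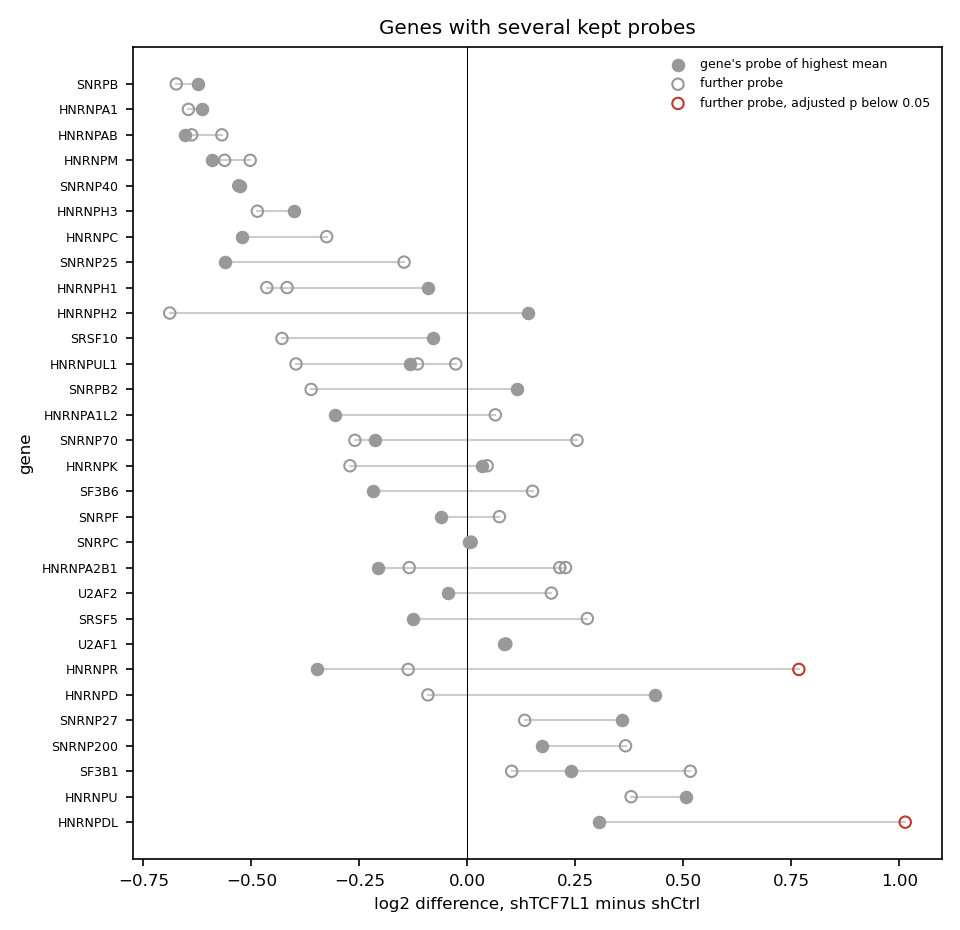
Log2 difference between shTCF7L1 and shCtrl (x axis) at each kept probe of the 30 splicing factor genes with several probes (y axis, ordered by their mean). Filled points are a gene's probe of highest mean and open points further probes; only 1 probe each of HNRNPR (0.77) and HNRNPDL (1.01) passed the threshold.

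Promoters were looked at because TCF7L1 binds DNA. RefSeq promoter sequences (GRCh38.p14) were matched by symbol for 62 of the 74 genes, and the 250 bases before the start farthest upstream were searched on both strands. The letters CTTTGA, the core of the TCF/LEF motif, occurred in 9.68% of these 62 genes, in 7.29% of 8501 genes with a kept probe and in 11.4% of all 27305 genes. CCGGAAG, an ETS factor core, occurred in 33.9%, 16.7% and 8.78% of the same sets. For NRF1 only 1 fixed string of 10 letters was searched, with no other letter allowed at any position. It occurred in 0 of the 62 genes and in 2.06% and 1.13% of the other sets. Variant forms of the NRF1 motif were not searched, so the 0 does not show that these promoters lack NRF1 motifs. Of the 7 changed genes 4 had an entry (SF3A2, HNRNPLL, HNRNPDL and HNRNPR). None of these 4 held CTTTGA in the window, and SF3A2 and HNRNPLL each held 1 CCGGAAG. These 2 are shown because they hold the same ETS letters, in capitals, though SF3A2 rose and HNRNPLL fell.
SF3A2, chr19:2236574-2236823, forward strand: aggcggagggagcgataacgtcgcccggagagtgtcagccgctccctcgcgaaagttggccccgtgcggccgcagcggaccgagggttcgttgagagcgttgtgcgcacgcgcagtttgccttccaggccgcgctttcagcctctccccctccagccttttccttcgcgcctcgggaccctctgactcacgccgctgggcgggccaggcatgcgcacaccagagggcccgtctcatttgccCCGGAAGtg
HNRNPLL, chr2:38602929-38603178, reverse strand: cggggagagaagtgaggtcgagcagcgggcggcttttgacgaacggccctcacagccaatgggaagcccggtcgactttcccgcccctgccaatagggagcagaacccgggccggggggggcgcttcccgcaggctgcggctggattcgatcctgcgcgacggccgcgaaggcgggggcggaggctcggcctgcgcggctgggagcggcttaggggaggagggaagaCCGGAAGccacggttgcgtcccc
A match is a description of letters and shows neither binding nor a cause.

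Other genes of the splicing pathway were followed in 5 lists. Of 15 probes (10 genes) of SR protein kinases and phosphatases 1 rose and 2 fell, with a median of 0.05. That is 20% called, against 13.0% of all kept probes. CLK4, a kinase that phosphorylates SR proteins, had 5.44, 5.44 and 5.92 in shTCF7L1 and 4.75, 4.82 and 5.06 in shCtrl (difference 0.73, SE 0.21, adjusted p = 0.0307). It was above background on all 3 shTCF7L1 arrays but on 1 of 3 shCtrl arrays, so the difference includes control values at background. It was 0.38 with an offset of 50 (adjusted p = 0.0873) and 0.56 without background correction (0.0531), neither past the threshold. DYRK1A, another kinase of splicing factors, had 7.63, 7.07 and 7.09 against 7.89, 8.08 and 8.09 in shCtrl (difference -0.76, SE 0.21, adjusted p = 0.0267). PPP1CB, a catalytic subunit of protein phosphatase 1, fell 1.65-fold (adjusted p = 0.0230). In none of these 3 did the groups overlap, but each call ended in at least 3 of the 6 fits that left out 1 array (adjusted p up to 0.118).

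Of 67 probes (56 genes) of the spliceosome core outside the families above, 1 rose, 2 fell and 64 were not past the threshold. Their median was -0.12, and 4.48% were called against 13.0% of all kept probes. PPIH, a cyclophilin of the U4/U6·U5 snRNP, had 7.89, 8.37 and 8.04 in shTCF7L1 and 9.48, 9.57 and 9.04 in shCtrl. Its groups lay well apart (difference -1.27, SE 0.22, 2.40-fold lower, adjusted p = 0.00162), and it passed under all 18 alternatives. PRPF38A, which joins before activation, fell at probe ILMN_1675626 (-0.83, SE 0.20, adjusted p = 0.0131; 0.0629 without shCtrl replicate 1) and gave -0.11 at its brighter probe. PRPF8, the largest U5 protein, rose. It had 10.13, 10.40 and 10.16 in shTCF7L1 and 9.85, 8.93 and 9.66 in shCtrl (difference 0.75, SE 0.24, adjusted p = 0.0460). The value was 0.48 without the low shCtrl replicate 2 (adjusted p = 0.202), and the call held in 1 of the 6 fits that left out 1 array.

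Among 86 probes (49 genes) of other splicing regulators 2 rose, 4 fell and 80 were not past the threshold. Their median was 0.02, and 6.98% were called against 13.0% of all kept probes. RBFOX2, which binds GCAUG elements and promotes splicing programmes of mesenchymal cells, rose. It had 9.09, 9.29 and 8.57 in shTCF7L1 and 7.05, 7.96 and 8.12 in shCtrl, a difference of 1.27 (SE 0.27, 2.41-fold, adjusted p = 0.00636). Its other probe gave 0.12, and with the mean of both probes the call ended. ESRP1, the epithelial splicing regulator, fell 1.93-fold, with 5.38, 5.62 and 5.70 in shTCF7L1 and 6.11, 6.68 and 6.76 in shCtrl (adjusted p = 0.00967). PTBP3, a paralogue of PTBP1, fell 2.16-fold at probe ILMN_2117223 (adjusted p = 0.00282; -0.54 at its brighter probe, adjusted p = 0.0931). The cold-inducible RBM3 fell 1.94-fold, with 7.05, 7.14 and 7.00 in shTCF7L1 and 8.09, 8.23 and 7.74 in shCtrl (adjusted p = 0.00597). ELAVL1 (0.87), which binds AU-rich elements, and RBMX (-0.62), an hnRNP G gene, also passed.

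Of 22 probes (17 genes) of the exon junction complex and nonsense-mediated decay 1 rose and 2 fell, with a median of 0.18. That is 13.6% called, close to the 13.0% of all kept probes. Over the brightest probe of each gene the median was -0.02. CASC3, a core protein of the exon junction complex, had 6.65, 6.64 and 5.98 in shTCF7L1 and 7.65, 7.46 and 7.17 in shCtrl (difference -1.003, SE 0.23, adjusted p = 0.00910, and 0.0588 with the authors' values). The export factor ALYREF fell by 0.77 on the log2 scale (adjusted p = 0.0265) and its other probe gave 0.36. The decay factor UPF2 rose by 0.64 at 1 probe (adjusted p = 0.0460) and 0.21 and 0.27 at the others. The ALYREF call held in 1 and the UPF2 call in 0 of the 6 fits that left out 1 array. The last list held the SMN complex, which loads Sm proteins onto snRNA, and other genes of Sm assembly. Of its 23 probes (16 genes) 0 passed in limma, with 4 at an unadjusted p below 0.05 and a median of -0.16. The probe of smallest p was that of SMN2, with bead signals of 60.7, 49.3 and 38.8 in shTCF7L1 and 75.6, 78.0 and 53.0 in shCtrl (difference -0.70, adjusted p = 0.0742), and signal from its near-identical copy SMN1 cannot be told apart from it.

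**Figure D4:**
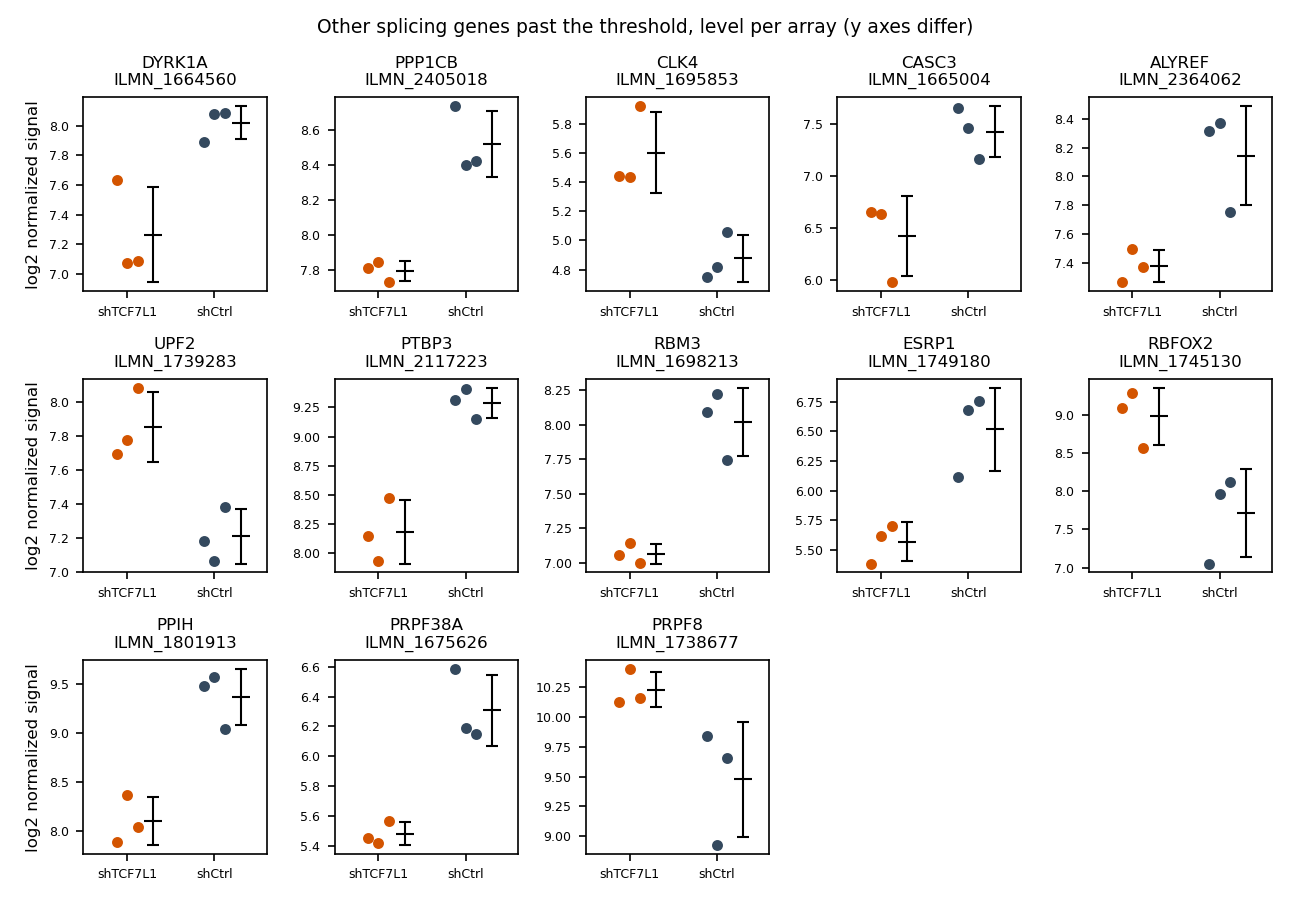
Normalized log2 signal (y axes, which differ between panels) on each array of 13 called probes of other splicing genes, shTCF7L1 left and shCtrl right, ordered by list. Points are arrays and bars are mean ± SD (n = 3 each). The groups do not overlap in any panel, and PTBP3, PPIH and RBM3 are lower while RBFOX2 is higher in shTCF7L1. As the probes were chosen by their difference on these same arrays, the lack of overlap is no further evidence.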

How the data were processed

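RNA of HCT116 cells was hybridised to 6 Illumina arrays (3 shTCF7L1, 3 shCtrl). The deposited intensity is the average bead signal of a probe, per the file headers, made with GenomeStudio 2011.1 per the submitters' processing notes (settings not given in the sources used here). A deposited detection p-value, per the file headers, is given for each probe and array. The authors' series matrix holds intensity values that, judged from the values, were background-subtracted and scaled to equal array means; floored at 16, they served as an alternative.

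Bead signals were processed with neqc (offset 16, quantile normalization, log2) in limma 3.58.1, R 4.3.3. Probes with detection p below 0.01 on at least 3 arrays were kept (16835). Groups were compared with lmFit and eBayes (2-sided), with Benjamini-Hochberg over these probes. Probe pairs of a gene were tested as per-array log2 differences, adjusted over 3195 pairs. A fold against a group not above background is a lower bound, set against the lowest detected signal. Of 47225 probes 30110 had 1 gene symbol, 8 several and 17107 none in the platform annotation; symbols were updated through Entrez identifiers to GRCh38.p14. The fits were run on simulated arrays with independent noise and shifts of known size. Those arrays held no array or chip position effects, so the simulation does not check the fits against such effects. Exact permutation of 3 against 3 arrays cannot go below p = 0.1. The number of arrays limits the precision.

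The splicing factor genes and all lists were chosen with earlier results of these data known. Named are the changed genes, the 2 genes of highest mean in each role (also that of smallest p where none changed), up to 4 changed genes of each other list (or that of smallest p) and TCF7L1; all further names were chosen after their values were seen. Alternatives covered background, scaling, detection filter, variance model, array weights, replicate block, 1 value a gene and leaving out each array.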

Additional observations from a re-analysis of the deposited data

How the results depend on the processing

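Of the 7 changed splicing factor probes, SNRPD1 and SF3A2 passed under all 18 alternatives. HNRNPDL passed in 14 of 16, SNRNP35 in 12 of 17, HNRNPLL in 11 of 18, SF3B3 in 8 of 18 and HNRNPR in 8 of 16. The 3 higher and 4 lower calls became 5 and 1 with the authors' processed values (3 of the 7 original probes among them), and 1 and 1 without a detection filter, which tested all probes of the table and called 1278. With 1 probe a gene 1 gene was higher. In the main fit, counting only each gene's brightest probe, 1 gene was higher and 4 were lower. The called probes of HNRNPDL and HNRNPR are not the brightest of their genes. The median of the splicing factor probes was -0.20 with 1 probe a gene, -0.20 with median scaling and -0.0903 without a filter. Over all genes 46 probe pairs passed with a looser filter and 83 with none, against 18, and 0 splicing factor pairs passed in any fit. When each array was left out in turn, 1424 to 1607 probes passed in place of 2195, 10 to 14 pairs over all genes, 2 to 3 splicing factor probes higher and 2 to 4 lower, with a median of -0.20 to -0.16. The lowest counts were 2 higher and 2 lower without shCtrl replicate 1. The TCF7L1 difference did not pass in any fit: it was -0.63 to -0.44 with an array left out and -0.03 with the authors' values, which were floored. The sign turned, without passing, for SNRPB2 (-0.12), HNRNPA2B1 (0.025) and the brightest HNRNPR probe (0.094) with the mean of a gene's probes. It also turned for some omitted arrays, over which SNRPB2 ranged from -0.0076 to 0.18, SRSF9 from -0.36 to 0.11, and the brightest probes of UPF2 and PRPF38A from -0.014 to 0.35 and from -0.29 to 0.036. The cause of these shifts was not tested. Same-numbered arrays of the 2 groups did not deviate together (correlations -0.0025, 0.0005 and 0.0045, and 2 of 6 arrays correlated best with their own number). These values show no shared deviation by replicate number, but cannot tell whether same-numbered arrays were prepared together. With the replicate block 2127 probes passed, 3 splicing factor probes higher and 3 lower, and SF3B3 did not pass (adjusted p = 0.0618). The folds of SNRNP35 and SNRPN, not above background on any array of 1 group, are bounds only. For TCF7L1, with values at background in both groups, no bound is given. Kept probes above background on only some arrays of a group, such as those of CLK4, SMN2 and 1 each of SF3B1, U2AF2, HNRNPH1 and HNRNPUL1, have differences that include values at background.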
